A study of Homo sapiens with 24 samples.

Results

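The SLC25 family was described in A549, a human lung cancer cell line in long use. Its members here are the genes typed as protein-coding in the deposited A549 table whose symbol begins with SLC25A, apart from SLC25A11, SLC25A12 and SLC25A13. This gave 45 of the 58302 genes in the table, of which 32 had a mean of at least 1 FPKM (fragments per kilobase of exon, scaled to library depth) over the 12 libraries and were tested, and 13 did not. Polyadenylated RNA was sequenced from 4 groups of 3 libraries. GPD1 metformin cells carried a lentivirus for GPD1 overexpression and were grown in medium with 10 mM metformin, and GPD1 untreated cells carried the same virus without the drug. Vector metformin cells carried a blank lentivirus and received 10 mM metformin, and vector untreated cells carried the blank virus alone. All 4 groups were therefore lentivirally transduced. The sources used here name neither the transgene's promoter nor the treatment's duration, nor do they say whether the cells were 1 clone. GPD1 is the cytosolic enzyme that reduces dihydroxyacetone phosphate to glycerol-3-phosphate with NADH, and metformin is a diabetes drug that slows respiration at complex I. The question behind the groups was how GPD1 affects the growth of cancer cells, alone and together with the drug.

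SLC25 proteins are the largest family of solute carriers in human cells, and most sit in the inner mitochondrial membrane. Each passes a particular nucleotide, phosphate, carboxylate, amino acid, cofactor or metal ion between cytosol and matrix, often as an exchange of one solute for another. The ADP/ATP carriers export the ATP made by oxidative phosphorylation, and they can also run in reverse when respiration fails and bring ATP into the matrix.

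Whether libraries of 1 group stem from separate cultures is not stated by the labels. The p-values therefore rest on the differences between libraries within groups, which may be technical. Steps between low values corresponded to 13.25 M to 18.01 M reads or fragments a library, and 1 read on an exon length of 1 kb was worth 0.0555 to 0.0755 FPKM. GPD1 stood at 13.3 to 13.8 FPKM in GPD1 metformin libraries, 15.1 to 16.8 FPKM in GPD1 untreated libraries, 0.0248 to 0.0702 FPKM in libraries of vector metformin cells and 0.0408 to 0.103 FPKM in those of vector untreated cells, as the labels say. The keratins KRT8 (64.4 to 111 FPKM) and KRT18 (104 to 149 FPKM) and the A549-rich ALDH1A1 (1410 to 3360 FPKM) were high in all 12 libraries, whereas the epithelial genes KRT19 (0 to 0.0869 FPKM) and EPCAM (0.24 to 1.57 FPKM) were low. CD3E and CDH5, of T cells and endothelial cells, were listed at 0 throughout. PTPRC and PECAM1, of blood and endothelial cells, reached 0.0299 and 0.0267 FPKM. Of the kidney epithelium genes looked at, PAX8 stood at 0.0255 to 0.162 FPKM, PAX2 at 0.457 to 2.48 FPKM and CDH16 at 1.14 to 2.9 FPKM. Genes of the mitochondrial genome took 10.3 to 11.4% of all FPKM in GPD1 metformin libraries, 30.2 to 32.3% in GPD1 untreated libraries, 13.7 to 14.9% in those of vector metformin cells and 32.9 to 33.2% in vector untreated libraries. FPKM are shares of a library, so the values of all other genes depend on whether this part is counted. Where totals were taken without the mitochondrial genome, the median log2 fold change of all tested genes under metformin was -0.49 in GPD1 cells and -0.35 in vector cells, against -0.20 and -0.10 on the values as deposited. With median-ratio factors these medians were 0.07 and 0.10. In such bulk samples a lower level per cell and fewer cells of a kind cannot be told apart.

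Under metformin members moved in both directions, in a split that depended on how libraries were scaled. In GPD1 cells 11 of the 32 tested members rose and 15 fell at an adjusted p under 0.05 (limma, Benjamini-Hochberg over all 12607 tested genes), where 26.1% of all tested genes rose and 48% fell. In vector cells 13 members rose and 13 fell, against 31.3% and 43.3% of all tested genes. These shares of members are near those of all tested genes. With totals taken without the mitochondrial genome 3 members rose and 20 fell in GPD1 cells (13.3% and 65.1% of all tested genes), and 6 rose and 17 fell in vector cells (20.9% and 55.8%). With median-ratio factors 15 rose and 9 fell in GPD1 cells (39.8% and 33.5%), and 15 rose and 12 fell in vector cells (42% and 32.7%). The median log2 fold change was -0.12 over members and -0.20 over all tested genes in GPD1 cells, and -0.08 and -0.10 in vector cells. Both metformin comparisons rest on separate libraries. Of the members that rose, 10 were called in both, which is 10 of 11 in GPD1 cells and 10 of 13 in vector cells, where 75.3% and 62.8% of such calls over all tested genes were in both. They were SLC25A3, SLC25A5, SLC25A6, SLC25A15, SLC25A25, SLC25A26, SLC25A29, SLC25A33, SLC25A37 and SLC25A38. Of these 10, only SLC25A25 and SLC25A38 were called higher in both with totals taken without the mitochondrial genome. Of those that fell, 13 were called in both, which is 13 of 15 in GPD1 cells and 13 of 13 in vector cells, against 73.1% and 81% over all tested genes, namely SLC25A4, SLC25A10, SLC25A14, SLC25A16, SLC25A20, SLC25A23, SLC25A24, SLC25A32, SLC25A35, SLC25A40, SLC25A42, SLC25A44 and SLC25A46. On the values as deposited no tested member was called in opposite directions. Among all 12607 tested genes, 603 rose in vector cells and fell in GPD1 cells on these values, and 196 did the reverse. With totals taken without the mitochondrial genome SLC25A36 was called higher in vector cells and lower in GPD1 cells. On the values as deposited SLC25A1, SLC25A30 and SLC25A36 were called higher with metformin in vector cells and were not called in GPD1 cells. SLC25A43 was called higher in GPD1 cells and not in vector cells, and SLC25A17 and SLC25A22 were called lower in GPD1 cells and not in vector cells. With median-ratio factors SLC25A1 and SLC25A30 were also called higher in GPD1 cells, and SLC25A43 in vector cells. With totals taken without the mitochondrial genome SLC25A17 and SLC25A22 were also called lower in vector cells. SLC25A28, SLC25A39 and SLC25A51 were called in neither on the values as deposited.

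**Figure D1:**
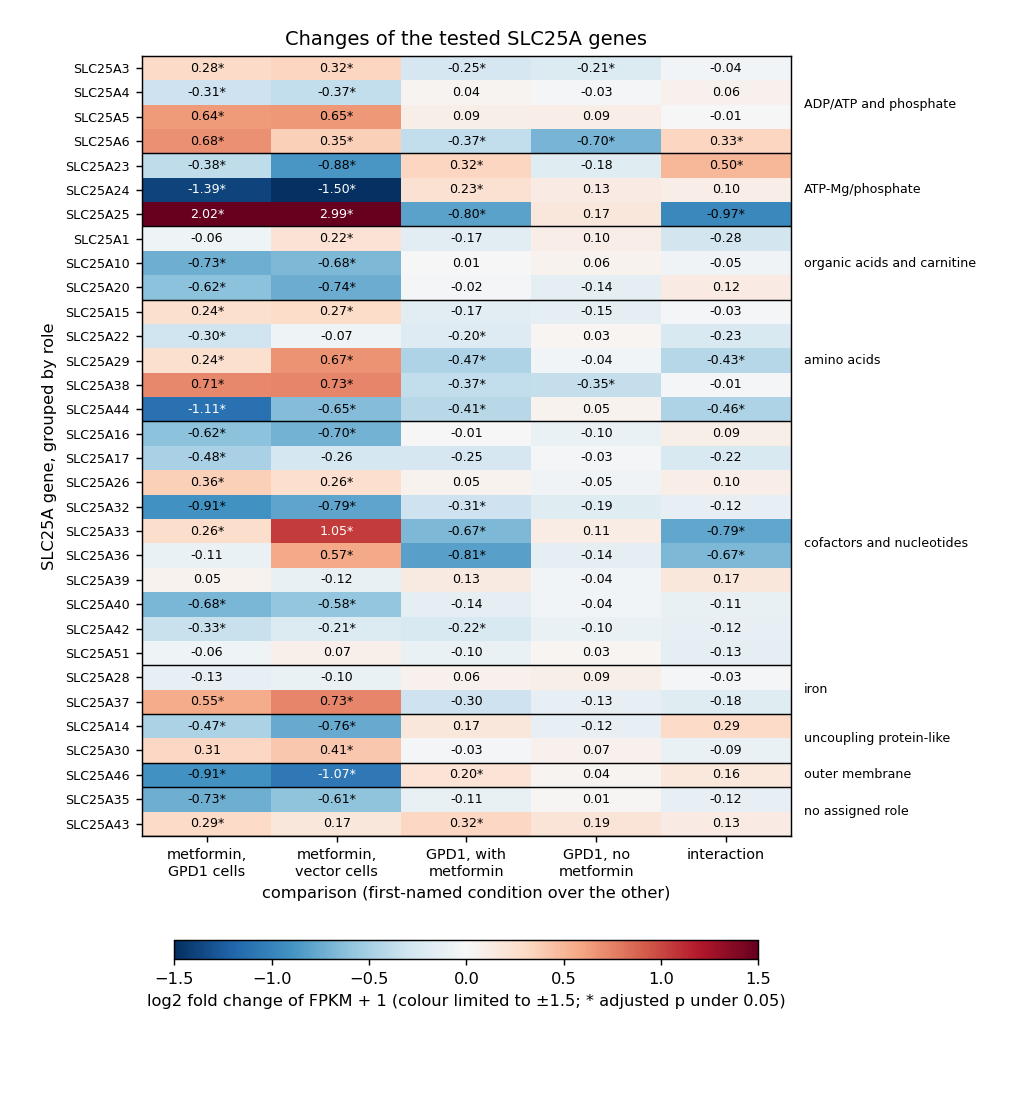
Log2 fold changes of FPKM + 1 for the 32 tested SLC25A genes (rows, grouped by role) in the 5 comparisons (columns), with a star where the adjusted p was under 0.05. The left columns for metformin share their pattern of red and blue in GPD1 and vector cells, and the column for GPD1 without metformin holds 3 starred genes, all lower.

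GPD1 overexpression without metformin changed few members. In GPD1 untreated against vector untreated cells 0 of 32 members rose, where 9.99% of all tested genes did, and 3 fell, where 11.3% did. Under metformin, GPD1 cells had 4 members higher and 11 lower than vector cells, against 25% and 35% of all tested genes. That split was 6 higher and 8 lower with median-ratio factors (31.3% and 30.6% of all tested genes) and with upper-quartile factors (33.7% and 28.2%). It was 0 higher and 15 lower with totals taken without the mitochondrial genome (18.8% and 39%). The interaction compares the size of the metformin effect in GPD1 cells with that in vector cells, as the difference of the log2 fold changes. It was positive for 2 members and negative for 5, against 19.1% and 26.8% of all tested genes, and for 4 and 5 with upper-quartile factors (26.7% and 21.9%). With median-ratio factors SLC25A46 was also called positive (23.3% and 24.1% of all tested genes were positive and negative). With totals taken without the mitochondrial genome SLC25A1 and SLC25A22 were also called negative (14.3% and 30%). The median log2 fold change over members was -0.03 for GPD1 without metformin, -0.13 for GPD1 under metformin and -0.05 for the interaction, against -0.01, -0.05 and -0.04 over all tested genes. These comparisons share groups with each other and with the metformin comparisons. Of the called members, libraries of the groups compared did not overlap for 25 of 26 in GPD1 cells under metformin, 25 of 26 in vector cells under metformin, 3 of 3 for GPD1 without metformin and 15 of 15 for GPD1 under metformin. Of all called genes, 97.9%, 97.0%, 99.4% and 96.8% did not overlap in these comparisons, in the same order.

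The ATP-Mg/phosphate carriers exchange ATP-Mg for phosphate across the inner membrane, most of them under control by calcium, and set the adenine nucleotide content of the matrix. They are encoded by 4 genes, which held the largest rise and the largest fall of the tested family. SLC25A25 (ENSG00000148339, chromosome 9, 128068201 to 128109245 in GRCh38) stood at 14.2, 16.1 and 14.9 FPKM in GPD1 metformin libraries, against 2.98, 2.44 and 3.54 FPKM in GPD1 untreated libraries. In vector cells it stood at 24.4, 27.0 and 29.6 FPKM with metformin, against 2.49, 2.77 and 2.31 FPKM without it. Every metformin library lay above every untreated library, and the 3 vector metformin libraries lay above the 3 GPD1 metformin libraries. The group means differed 5.05-fold in GPD1 cells (log2 fold change 2.02 ± 0.10, SE, limma adjusted p = 2.48e-08) and 10.7-fold in vector cells (2.99 ± 0.10, adjusted p = 1.12e-09). Among all tested genes these log2 fold changes stood at percentile 99.3 in GPD1 cells and 99.8 in vector cells. The metformin effect was smaller in GPD1 cells than in vector cells, by 0.97 on the log2 scale (interaction -0.97 ± 0.15, adjusted p = 0.000327). GPD1 against vector cells differed under metformin (-0.80 ± 0.10, adjusted p = 5.78e-05), and the untreated groups averaged 2.99 ± 0.55 FPKM in GPD1 cells and 2.52 ± 0.23 FPKM in vector cells (SD, n = 3 each). Its antisense gene SLC25A25-AS1 shares 665 exonic bases with it and stood between 1.77 and 2.68 FPKM in all libraries. The labels state no strand, so reads on the shared bases cannot be assigned to one of the 2 genes.

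SLC25A24 (ENSG00000085491, chromosome 1, 108134036 to 108200849) moved the other way. It stood at 1.57, 1.15 and 1.45 FPKM in GPD1 metformin libraries, against 5.48, 5.09 and 5.23 FPKM in GPD1 untreated libraries. Vector cells had 1.09, 1.08 and 0.943 FPKM with metformin, against 4.68, 4.98 and 4.58 FPKM without it. All metformin libraries lay below all untreated ones. The group mean was 3.78-fold lower with metformin in GPD1 cells (log2 fold change -1.39 ± 0.07, SE, limma adjusted p = 2.07e-08) and 4.58-fold lower in vector cells (-1.497 ± 0.07, adjusted p = 9.76e-09). The interaction was 0.10 and was not called (adjusted p = 0.418). Both carriers kept these directions and calls under metformin with every scaling tried. Within single libraries the ratio of SLC25A25 to SLC25A24, in FPKM, was 9.03 to 14.01 in GPD1 metformin cells against 0.479 to 0.677 in GPD1 untreated cells, and 22.5 to 31.4 in vector metformin cells against 0.504 to 0.556 in vector untreated cells. This ratio does not depend on how libraries are scaled. It was chosen after the values were seen and was not tested.

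SLC25A23 is the third carrier of this kind that was tested, and it fell in both GPD1 and vector cells. It stood at 4.07, 3.93 and 5.29 FPKM in GPD1 metformin libraries, against 5.68, 6.19 and 6.15 FPKM in GPD1 untreated libraries. In vector cells it stood at 3.44, 3.04 and 3.53 FPKM with metformin, against 7.12, 6.62 and 7.14 FPKM without it. The fall was smaller in GPD1 cells (log2 fold change -0.38 ± 0.09, SE) than in vector cells (-0.88 ± 0.09), with an interaction of 0.50 ± 0.12 (limma adjusted p = 0.00752). The third GPD1 metformin library lay nearest to the untreated ones. The call in GPD1 cells was lost with median-ratio factors, while the interaction held under all scalings. The remaining paralog, SLC25A41, was under the filter. It was listed at 0 in the 3 GPD1 metformin libraries, against 0.323, 0.125 and 0.139 FPKM in GPD1 untreated libraries, and stood at 0.106, 0.169 and 0.0896 FPKM in vector metformin libraries, against 0.263, 0.446 and 0.393 FPKM in vector untreated libraries. A value of 0 in this table can be a failed estimate, so no fold is given.

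**Figure D2:**
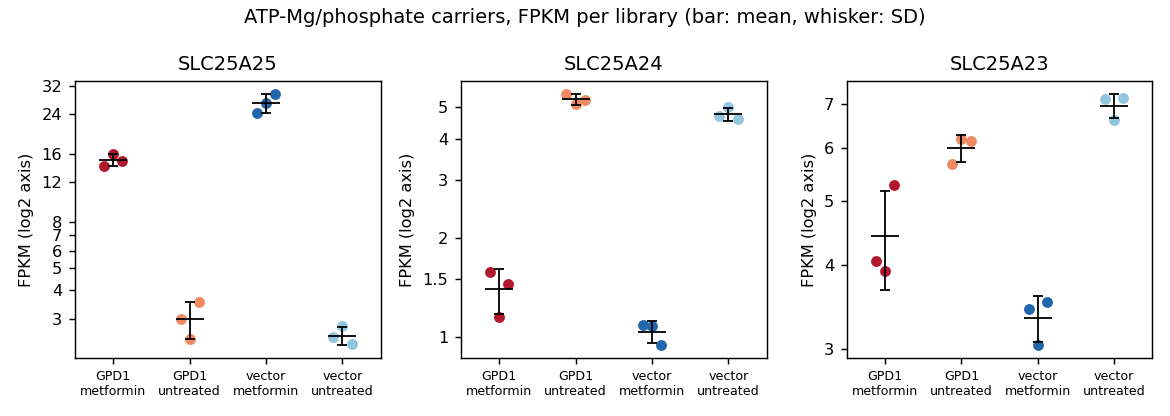
FPKM of SLC25A25, SLC25A24 and SLC25A23 (log2 axes) in each library of the 4 groups, with bars at group means and whiskers of 1 SD. SLC25A25 lies at 14.2 to 29.6 FPKM in metformin libraries and at 2.31 to 3.54 FPKM in untreated ones, while SLC25A24 lies at 0.943 to 1.57 FPKM with metformin and at 4.58 to 5.48 FPKM without.

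Promoter windows from RefSeq (GRCh38.p14, 250 bases before to 50 after each annotated start) were available for 37 of the 45 members and 27 of the 32 tested. The cAMP response element TGACGTCA, the palindromic site of the CREB and ATF factors, was found in the windows of 3 members, SLC25A25, SLC25A33 and SLC25A36, and in 1.85% of all 35116 windows. Counted by gene, since a gene can have several windows, that is 3 of 27 tested members and 4.06% of the 8335 tested genes with a window. SLC25A33 and SLC25A36 carry pyrimidine nucleotides. These 3 are also the members with the most negative interaction values, described in turn here and further on, which is why their upstream sequences are shown. SLC25A25 has 3 windows, of which 1 held the element, and the start next to it lies 30.3 kb into the gene, so that it belongs to transcripts with a start inside the gene. The values per gene do not separate transcripts. The 250 bases before the start are given 5′ to 3′, all on the + strand, with the element in capitals, at chr9:128098257-128098506 for SLC25A25, chr1:9539215-9539464 for SLC25A33 and chr3:140941586-140941835 for SLC25A36.
SLC25A25: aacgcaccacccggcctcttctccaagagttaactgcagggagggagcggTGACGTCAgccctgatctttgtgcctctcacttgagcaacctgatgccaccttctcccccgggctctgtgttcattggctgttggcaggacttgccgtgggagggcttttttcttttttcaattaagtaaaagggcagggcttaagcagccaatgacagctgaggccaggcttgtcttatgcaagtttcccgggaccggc
SLC25A33: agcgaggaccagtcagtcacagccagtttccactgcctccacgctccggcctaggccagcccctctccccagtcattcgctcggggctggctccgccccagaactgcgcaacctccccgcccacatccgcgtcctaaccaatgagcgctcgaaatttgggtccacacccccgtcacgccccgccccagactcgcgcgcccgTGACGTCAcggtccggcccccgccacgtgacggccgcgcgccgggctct
SLC25A36: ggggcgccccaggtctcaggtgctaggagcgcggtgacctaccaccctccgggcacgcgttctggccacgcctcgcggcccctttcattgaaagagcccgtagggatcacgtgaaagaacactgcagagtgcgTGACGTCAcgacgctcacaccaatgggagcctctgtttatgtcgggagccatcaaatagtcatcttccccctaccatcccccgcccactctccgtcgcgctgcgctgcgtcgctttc
The element begins 200 bases before the start in SLC25A25, 49 in SLC25A33 and 117 in SLC25A36. It was singled out after the values of these genes were seen, from the 12 strings counted on both strands and 2 more that were searched, and no test was made. Over all tested genes with a window, the interaction was called negative in 28.1% of the 338 genes with the element and 28.5% of the 7997 without it, and metformin raised 31.4% and 29.2% of them in vector cells. For GPD1 under metformin 23.4% and 27.7% were higher and 38.8% and 36.4% lower. These shares were not tested. A match is a run of letters and does not show that a factor binds there.

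For the other strings, counts are given of the 27 tested members, beside the share of the 8335 tested genes with a window and the share of all windows. TGACG, which also matches within TGACGTCA, was in 12 members, 41.42% of genes and 24.55% of windows. TGATGNAA, a CCAAT-enhancer and ATF element, was in 0 members, 2.46% of genes and 3.62% of windows, and its longer form TGATGNAAN in 0 members, 2.45% of genes and 3.61% of windows. The NRF1 element GCATGCGC was in 0 members, 6.68% of genes and 3.05% of windows. The ETS element CCGGAAGT was in 4 members (SLC25A17, SLC25A24, SLC25A26 and SLC25A46), 10.63% of genes and 4.14% of windows, and its shorter form CCGGAAG, which overlaps it, in 10 members, 23.52% of genes and 10.26% of windows. The YY1 element AAGATGGCG was in the window of SLC25A3, in 5.16% of genes and in 1.75% of windows. The E-box CACGTG was in 7 members, 12.9% of genes and 7.26% of windows, and the AP-1 element TGANTCA in 1 member, 6.45% of genes and 7.71% of windows. The GC box GGGCGG was in 22 members, 78.86% of genes and 44.95% of windows, and the CCAAT box CCAAT in 15 members, 43.12% of genes and 34.61% of windows. A longer NRF1 element and the serum response element were also searched and are not counted here.

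The ADP/ATP and phosphate carriers serve oxidative phosphorylation, and they held the most abundant transcripts of the family. SLC25A5 (ANT2, ENSG00000005022, chromosome X, 119468400 to 119471319) alone made up 56.4 to 62.8% of the FPKM of all 45 members in GPD1 metformin libraries, 52.6 to 54.7% in GPD1 untreated libraries, 51.0 to 55.5% in those of vector metformin cells and 41.5 to 51.6% in vector untreated libraries. It stood at 465.8, 359.0 and 470.0 FPKM in GPD1 metformin libraries, against 282.5, 259.0 and 282.7 FPKM in GPD1 untreated libraries. Vector cells had 415.4, 361.8 and 436.1 FPKM with metformin, against 282.8, 297.9 and 201.7 FPKM without it. The second library was the lowest of both metformin groups, and no metformin library overlapped an untreated one of the same cells. The log2 fold change was 0.64 ± 0.15 (SE) in GPD1 cells and 0.65 ± 0.15 in vector cells (limma adjusted p = 0.0024 and 0.0022). With totals taken without the mitochondrial genome these values were 0.25 (adjusted p = 0.145) and 0.35 (adjusted p = 0.0514), so the calls rest on the scaling. SLC25A5 has 9 annotated pseudogenes, of which the highest reached 0.691 FPKM, and the sources used here do not say how reads shared with such copies were handled.

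SLC25A6 (ANT3, ENSG00000169100, chromosome X, 1386152 to 1392724) was the tested member that differed most with GPD1 alone. It stood at 107.2, 107.8 and 106.8 FPKM in GPD1 metformin libraries, 67.3, 65.5 and 66.6 FPKM in GPD1 untreated libraries, 135.4, 142.5 and 139.1 FPKM in vector metformin libraries and 113.5, 103.7 and 108.4 FPKM in vector untreated libraries. The GPD1 untreated libraries were the lowest, and on the values as deposited the GPD1 metformin libraries lay at the level of vector untreated cells. That match depends on the scaling. Totals taken without the mitochondrial genome divide these 2 groups by 1.16 to 1.18 and by 0.884 to 0.886, and median-ratio factors by 0.867 to 0.879 and by 1.10 to 1.14. Without metformin SLC25A6 was 1.63-fold lower in GPD1 cells than in vector cells (log2 fold change -0.70 ± 0.04, SE, limma adjusted p = 5.55e-07), and with metformin 1.30-fold lower (-0.37 ± 0.04, adjusted p = 1.08e-05). Metformin raised it by 0.68 ± 0.04 in GPD1 cells (adjusted p = 4.96e-08) and 0.35 ± 0.04 in vector cells (adjusted p = 7.77e-06), and the interaction was 0.33 ± 0.05 (adjusted p = 0.000622). With totals taken without the mitochondrial genome the rise in vector cells was 0.06 (adjusted p = 0.165) and was no longer called. In single libraries SLC25A6 made up 18.4 to 22.9% of the summed FPKM of the 3 ADP/ATP carriers in GPD1 metformin cells, 18.8 to 19.9% in GPD1 untreated cells, 24.1 to 28.1% in vector metformin cells and 25.6 to 34.5% in vector untreated cells. These shares, which do not depend on scaling, did not overlap between GPD1 and vector cells. They also depend on SLC25A5, the largest part of the sum, and were not tested.

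SLC25A4 (ANT1), the ADP/ATP carrier typical of heart and muscle, was scarce and fell with metformin. It stood at 2.93, 3.33 and 3.16 FPKM in GPD1 metformin libraries, against 4.05, 3.86 and 4.48 FPKM in GPD1 untreated libraries, and at 3.19, 2.80 and 3.12 FPKM in vector metformin libraries, against 4.46, 4.12 and 4.07 FPKM in vector untreated libraries. The groups did not overlap (log2 fold change -0.31 ± 0.06, SE, in GPD1 cells and -0.37 ± 0.06 in vector cells, limma adjusted p = 0.00115 and 0.000309). The call in GPD1 cells was lost with median-ratio factors (-0.05, adjusted p = 0.527). As a share of the summed FPKM of the 3 ADP/ATP carriers, which does not depend on scaling, SLC25A4 made up 0.508 to 0.709% in GPD1 metformin libraries against 1.15 to 1.27% in GPD1 untreated libraries, and 0.540 to 0.576% in vector metformin libraries against 1.02 to 1.30% in vector untreated libraries. Neither pair of groups overlapped in this share. The sum itself was 470 to 580 FPKM in GPD1 metformin libraries against 328 to 354 FPKM in GPD1 untreated libraries. In vector cells it was 507 to 578 FPKM with metformin against 314 to 406 FPKM without it. A higher sum lowers the share even where SLC25A4 stays level, so the share does not show a fall of SLC25A4 itself. The share was not tested. SLC25A31 (ANT4), a germ cell carrier, was listed at 0 in 11 of 12 libraries and at 0.149 FPKM in the third vector metformin library.

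SLC25A3, the phosphate carrier that supplies the matrix with phosphate for ATP synthesis, stood at 28.8, 30.8 and 31.0 FPKM in GPD1 metformin libraries, against 24.6, 25.2 and 24.1 FPKM in GPD1 untreated libraries. In vector cells it stood at 35.4, 35.8 and 36.9 FPKM with metformin, against 28.8, 28.2 and 28.9 FPKM without it. It was higher in each metformin library than in any untreated library of the same cells, by 0.28 ± 0.04 (log2, SE) in GPD1 cells and 0.32 ± 0.04 in vector cells (limma adjusted p = 6.08e-05 and 1.95e-05). With totals taken without the mitochondrial genome the value was -0.10 in GPD1 cells (adjusted p = 0.0727) and 0.03 in vector cells (adjusted p = 0.505). GPD1 cells had less of it than vector cells both without metformin (-0.21 ± 0.04, adjusted p = 0.00338) and with it (-0.25 ± 0.04, adjusted p = 0.000249), and both calls held under all scalings.

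**Figure D3:**
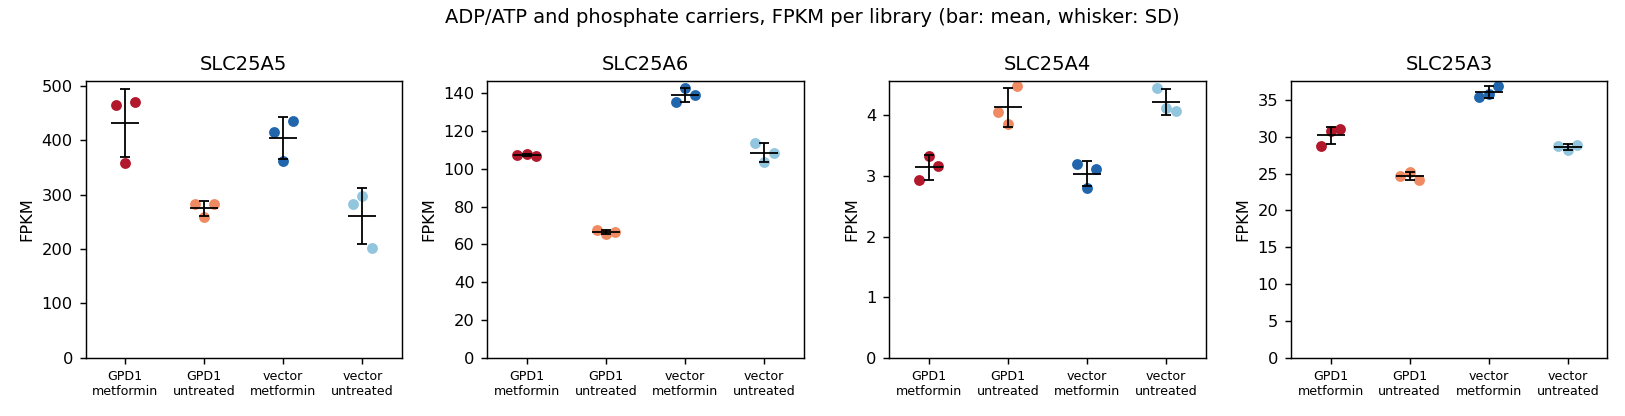
FPKM of SLC25A5, SLC25A6, SLC25A4 and SLC25A3 in each library of the 4 groups, on linear axes from 0, with bars at group means and whiskers of 1 SD. SLC25A6 is lowest in GPD1 untreated libraries (65.5 to 67.3 FPKM), and SLC25A4 is the one of the 4 genes whose metformin libraries lie below the untreated ones.

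Among the carriers of cofactors and nucleotides, 2 of the 10 tested rose and 5 fell with metformin in GPD1 cells, and 3 rose and 4 fell in vector cells, close to the shares of all tested genes (26.1% and 48% in GPD1 cells, 31.3% and 43.3% in vector cells). SLC25A33 and SLC25A36, the mitochondrial carriers of pyrimidine nucleotides, both had a called interaction. SLC25A33 (ENSG00000171612, chromosome 1, 9539482 to 9585179) stood at 2.77, 3.13 and 2.58 FPKM in GPD1 metformin libraries, against 2.12, 2.09 and 2.35 FPKM in GPD1 untreated libraries. Vector cells had 4.94, 5.15 and 5.16 FPKM with metformin, against 2.104, 1.91 and 1.82 FPKM without it. The vector metformin libraries were the highest and lay apart from all others. The group mean was 2.62-fold higher with metformin in vector cells (log2 fold change 1.05 ± 0.06, SE, limma adjusted p = 7.78e-08) and 1.29-fold higher in GPD1 cells (0.26 ± 0.06, adjusted p = 0.00322), and the interaction was -0.79 ± 0.09 (adjusted p = 5.67e-05). The small rise in GPD1 cells turned to -0.01 (adjusted p = 0.836) with totals taken without the mitochondrial genome, while the interaction call held under all scalings.

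SLC25A36 (ENSG00000114120, chromosome 3, 140941830 to 140979933) stood at 3.86, 4.26 and 3.52 FPKM in GPD1 metformin libraries, against 3.73, 4.33 and 4.71 FPKM in GPD1 untreated libraries, which overlapped. In vector cells it stood at 8.16, 6.85 and 7.66 FPKM with metformin, against 4.56, 4.97 and 4.76 FPKM without it, with no overlap. It was 1.59-fold higher with metformin in vector cells (log2 fold change 0.57 ± 0.08, SE, limma adjusted p = 9.77e-05). In GPD1 cells the change was -0.11 and was not called (adjusted p = 0.278), and it was 0.16 with median-ratio factors and -0.42 (adjusted p = 0.00113) with totals taken without the mitochondrial genome. With those totals the rise in vector cells was still called (0.31, adjusted p = 0.00692), so the 2 calls were opposite. The interaction was -0.67 ± 0.12 (adjusted p = 0.000983). Under metformin it was lower in GPD1 than in vector cells by a size like that of SLC25A25 (-0.81 ± 0.08, adjusted p = 1.16e-05).

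SLC25A16, SLC25A32, SLC25A40 and SLC25A42 of the cofactor group fell in both GPD1 and vector cells. On the values as deposited SLC25A17 was called lower in GPD1 cells alone, with an interaction that was not called. SLC25A32, which carries folate and FAD, stood at 1.802, 1.895 and 1.712 FPKM in GPD1 metformin libraries, against 3.93, 4.43 and 4.45 FPKM in GPD1 untreated libraries, and at 2.95, 2.34 and 2.15 FPKM in vector metformin libraries, against 5.42, 5.50 and 4.16 FPKM in vector untreated libraries (log2 fold change -0.91 ± 0.10, SE, and -0.79 ± 0.10, limma adjusted p = 1.26e-05 and 3.61e-05). The groups did not overlap. SLC25A16, which has been linked to coenzyme A import, averaged 0.716 ± 0.123 FPKM in GPD1 metformin libraries against 1.63 ± 0.16 FPKM in GPD1 untreated libraries, and 0.724 ± 0.031 FPKM in vector metformin libraries against 1.82 ± 0.29 FPKM in vector untreated libraries (SD, n = 3 each). It passed the filter through its untreated libraries, and its 2 metformin means lay under 1 FPKM. SLC25A42, the coenzyme A carrier, was among the lowest tested members, at 0.650 to 0.968 FPKM in GPD1 metformin libraries against 1.25 to 1.29 FPKM in GPD1 untreated libraries, and at 1.10 to 1.13 FPKM in vector metformin libraries against 1.33 to 1.57 FPKM in vector untreated libraries, and its metformin calls were lost with median-ratio factors. SLC25A42 and SLC25A16, with means of 1.16 and 1.22 FPKM, were the tested members with the lowest means.

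The paralogs SLC25A40 and SLC25A39, both mitochondrial glutathione carriers, differed in their values. SLC25A40 averaged 2.43 ± 0.16 FPKM in GPD1 metformin libraries against 4.51 ± 0.20 FPKM in GPD1 untreated libraries, and 2.80 ± 0.30 FPKM in vector metformin libraries against 4.66 ± 0.29 FPKM in vector untreated libraries (SD, n = 3 each), with log2 fold changes of -0.68 ± 0.07 (SE, limma adjusted p = 4.28e-06) and -0.58 ± 0.07 (adjusted p = 1.52e-05). SLC25A39, the most abundant of the cofactor group, stood at 9.05, 9.02 and 9.75 FPKM in GPD1 metformin libraries, against 9.48, 9.55 and 7.79 FPKM in GPD1 untreated libraries, and at 9.12, 8.11 and 7.91 FPKM in vector metformin libraries, against 9.59, 9.21 and 8.69 FPKM in vector untreated libraries. Its groups overlapped and it was not called, but the scaling decided its call. In GPD1 cells it was called higher (0.35, limma adjusted p = 0.00194) where median-ratio factors were used and lower with totals taken without the mitochondrial genome (-0.30, adjusted p = 0.00888), and with those totals it was also lower in vector cells (-0.38, adjusted p = 0.00201). SLC25A26, the S-adenosylmethionine carrier, rose in both GPD1 and vector cells, at 3.01, 2.70 and 2.40 FPKM in GPD1 metformin libraries against 2.04, 1.87 and 1.73 FPKM in GPD1 untreated libraries, and at 2.58, 2.54 and 2.58 FPKM in vector metformin libraries against 2.24, 1.94 and 1.79 FPKM in vector untreated libraries. Its calls (0.36 ± 0.08 and 0.26 ± 0.08, limma adjusted p = 0.00124 and 0.00971) were lost with totals taken without the mitochondrial genome. SLC25A17, a peroxisomal carrier of coenzyme A and other cofactors, averaged 1.35 ± 0.32 FPKM in GPD1 metformin libraries and 2.29 ± 0.48 FPKM in GPD1 untreated libraries, and 1.78 ± 0.25 FPKM in vector metformin libraries and 2.33 ± 0.04 FPKM in vector untreated libraries. Its call in GPD1 cells was lost with median-ratio factors (-0.28, limma adjusted p = 0.057). With totals taken without the mitochondrial genome it was also called lower in vector cells (-0.46, adjusted p = 0.00473). SLC25A51, which brings NAD into mitochondria, stood between 2.54 and 3.60 FPKM in all 12 libraries and was called in no comparison on the values as deposited. It was called higher in vector cells (0.26, limma adjusted p = 0.0243) where median-ratio factors were used and lower in GPD1 cells with totals taken without the mitochondrial genome (-0.36, adjusted p = 0.00948). Its near-identical copy SLC25A52 was listed at 0 in 10 of 12 libraries, and the sources used here do not say how reads were divided between the 2 genes.

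Of the 5 amino acid carriers tested, 3 rose and 2 fell with metformin in GPD1 cells, and 3 rose and 1 fell in vector cells, where 26.1% and 48% of all tested genes did so in GPD1 cells and 31.3% and 43.3% in vector cells. So few genes cannot be set apart from those shares. SLC25A38, the glycine carrier that feeds haem synthesis, was the most abundant of them. It stood at 16.5, 14.7 and 17.0 FPKM in GPD1 metformin libraries, 9.52, 9.40 and 9.15 FPKM in GPD1 untreated libraries, 20.5, 21.4 and 20.8 FPKM in vector metformin libraries and 12.52, 12.79 and 11.4 FPKM in vector untreated libraries. The 4 groups did not overlap. Metformin raised it by 0.71 ± 0.06 (log2, SE) in GPD1 cells and 0.73 ± 0.06 in vector cells (limma adjusted p = 8.73e-07 and 6.73e-07), and it was lower in GPD1 than in vector cells without metformin (-0.35 ± 0.06, adjusted p = 0.0015) and with it (-0.37 ± 0.06, adjusted p = 0.000273). All 4 calls held under the 3 other scalings.

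SLC25A44, which carries branched-chain amino acids, fell most of this group. It stood at 1.36, 1.01 and 0.764 FPKM in GPD1 metformin libraries, against 3.10, 3.54 and 3.54 FPKM in GPD1 untreated libraries. Vector cells had 1.86, 1.59 and 1.66 FPKM with metformin, against 3.04, 3.46 and 3.27 FPKM without it. Each metformin library lay below each untreated one, and the GPD1 metformin libraries were the lowest. The log2 fold change was -1.11 ± 0.10 (SE) in GPD1 cells and -0.65 ± 0.10 in vector cells (limma adjusted p = 1.59e-06 and 0.000102), with an interaction of -0.46 ± 0.14 (adjusted p = 0.019), which was not called when genes of all levels were tested (adjusted p = 0.0867).

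SLC25A29, a carrier of basic amino acids, stood at 3.38, 3.35 and 3.40 FPKM in GPD1 metformin libraries, against 2.79, 2.70 and 2.61 FPKM in GPD1 untreated libraries. In vector cells it stood at 5.34, 4.96 and 4.85 FPKM with metformin, against 3.05, 2.59 and 2.79 FPKM without it. The vector metformin libraries were the highest. The rise was 0.67 ± 0.05 (log2, SE) in vector cells and 0.24 ± 0.05 in GPD1 cells (limma adjusted p = 7.39e-07 and 0.00183), and the interaction was -0.43 ± 0.08 (adjusted p = 0.00107). The rise in GPD1 cells turned to -0.05 (adjusted p = 0.465) with totals taken without the mitochondrial genome. SLC25A15, the ornithine carrier of the urea cycle, averaged 7.65 ± 0.13 FPKM in GPD1 metformin libraries against 6.32 ± 0.59 FPKM in GPD1 untreated libraries, and 8.74 ± 0.12 FPKM in vector metformin libraries against 7.11 ± 0.79 FPKM in vector untreated libraries (SD, n = 3 each). With totals taken without the mitochondrial genome its call was lost in vector cells and its sign turned to -0.10 in GPD1 cells. The call of SLC25A22 in GPD1 cells was lost with median-ratio factors. With totals taken without the mitochondrial genome SLC25A22 was also called lower in vector cells (-0.29, limma adjusted p = 0.00451). That gene, a glutamate carrier, averaged 2.35 ± 0.17 FPKM in GPD1 metformin libraries, 3.12 ± 0.13 FPKM in GPD1 untreated libraries, 2.85 ± 0.34 FPKM in vector metformin libraries and 3.02 ± 0.11 FPKM in vector untreated libraries.

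**Figure D4:**
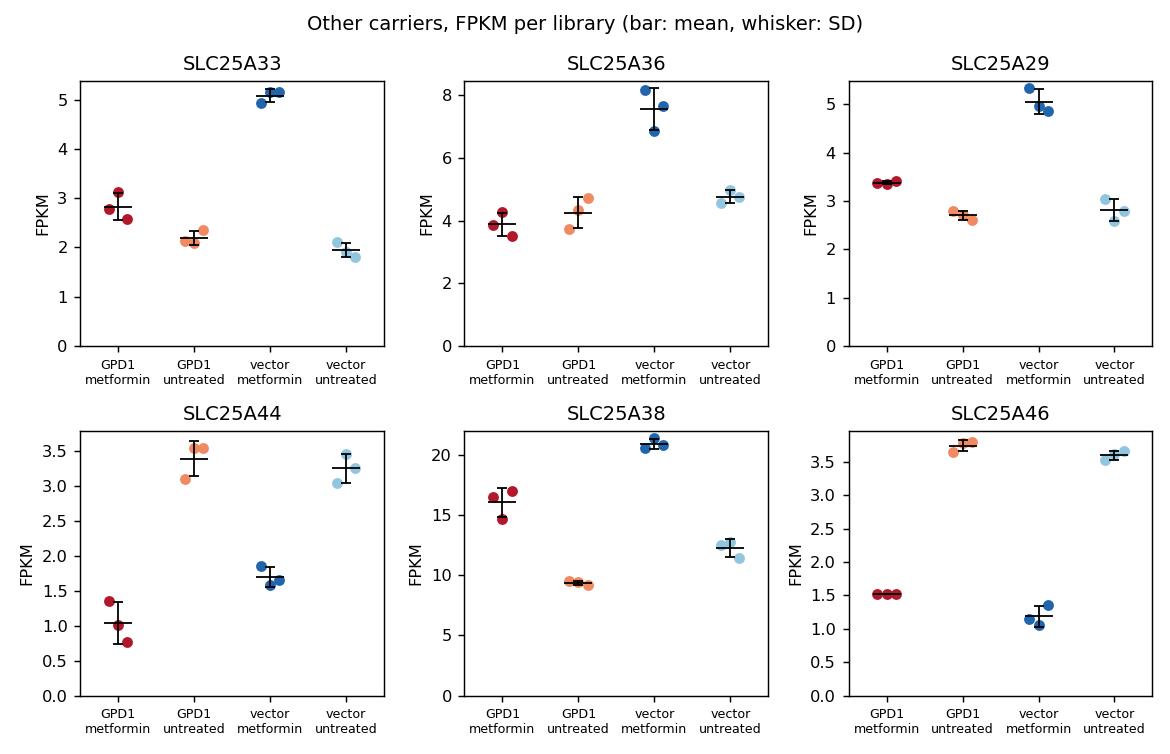
FPKM of SLC25A33, SLC25A36, SLC25A29, SLC25A44, SLC25A38 and SLC25A46 in each library of the 4 groups, on linear axes from 0, with bars at group means and whiskers of 1 SD. The vector metformin libraries are highest for SLC25A33 (4.94 to 5.16 FPKM), SLC25A36 (6.85 to 8.16 FPKM) and SLC25A29 (4.85 to 5.34 FPKM), while SLC25A44 and SLC25A46 lie lower in metformin than in untreated libraries.

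The carriers of organic acids and carnitine link the matrix to cytosolic lipid synthesis and to fatty acid oxidation. SLC25A10, the dicarboxylate carrier, stood at 5.11, 3.72 and 4.95 FPKM in GPD1 metformin libraries against 8.83, 7.91 and 7.91 FPKM in GPD1 untreated libraries, and at 4.04, 4.82 and 4.78 FPKM in vector metformin libraries against 8.22, 7.22 and 8.13 FPKM in vector untreated libraries (log2 fold change -0.73 ± 0.10, SE, and -0.68 ± 0.10, limma adjusted p = 6.14e-05 and 0.000101). SLC25A20, which brings acylcarnitines into the matrix for fatty acid oxidation, stood at 1.04, 1.55 and 1.30 FPKM in GPD1 metformin libraries against 2.04, 2.90 and 2.67 FPKM in GPD1 untreated libraries, and at 1.75, 1.18 and 1.08 FPKM in vector metformin libraries against 3.30, 2.08 and 3.38 FPKM in vector untreated libraries (-0.62 ± 0.16 and -0.74 ± 0.16, adjusted p = 0.00495 and 0.0016). Metformin libraries of both genes lay below the untreated ones of the same cells. SLC25A10 overlaps AC139530.2, a protein-coding gene on the same strand, by 1221 exonic bases, and that gene was listed at 0 to 0.796 FPKM.

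SLC25A1, the citrate carrier that supplies acetyl groups for fatty acid synthesis, was the most abundant of this group. It stood at 19.2, 19.1 and 20.3 FPKM in GPD1 metformin libraries, against 22.7, 19.4 and 19.5 FPKM in GPD1 untreated libraries, and at 22.7, 22.1 and 21.8 FPKM in vector metformin libraries, against 16.9, 19.0 and 21.3 FPKM in vector untreated libraries. The call in vector cells (0.22 ± 0.08, log2, SE, limma adjusted p = 0.0298) turned to -0.07 (adjusted p = 0.475) with totals taken without the mitochondrial genome. That call was also lost where some single vector libraries were left out. In GPD1 cells SLC25A1 was not called (-0.06, adjusted p = 0.501). There it was called higher with median-ratio factors (0.26, adjusted p = 0.00801) and lower with totals taken without the mitochondrial genome (-0.43, adjusted p = 0.000611). SLC25A21, the oxodicarboxylate carrier, was under the filter and was not tested. It stood at 0.354 to 0.396 FPKM in GPD1 metformin libraries against 0.210 to 0.298 FPKM in GPD1 untreated libraries. In vector cells it stood at 0.114 to 0.210 FPKM with metformin against 0.285 to 0.479 FPKM without it. Metformin libraries thus lay higher in GPD1 cells and lower in vector cells, with no overlap. SLC25A21-AS1 on the opposite strand shares 586 exonic bases with it and stood between 0.347 and 3.23 FPKM.

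The mitoferrins bring iron into mitochondria for haem and iron-sulphur clusters. SLC25A37 (mitoferrin 1), best known from red cell precursors, stood at 7.52, 10.2 and 9.41 FPKM in GPD1 metformin libraries, against 5.01, 5.43 and 7.15 FPKM in GPD1 untreated libraries, and at 9.01, 12.92 and 12.47 FPKM in vector metformin libraries, against 6.897, 5.804 and 6.642 FPKM in vector untreated libraries. Metformin and untreated libraries of the same cells did not overlap (log2 fold change 0.55 ± 0.15, SE, and 0.73 ± 0.15, limma adjusted p = 0.00728 and 0.00127). The call in GPD1 cells was lost with totals taken without the mitochondrial genome (0.21, adjusted p = 0.207). SLC25A28 (mitoferrin 2), the widely expressed paralog, stood at 10.54, 9.36 and 9.92 FPKM in GPD1 metformin libraries, against 10.4, 11.2 and 11.2 FPKM in GPD1 untreated libraries, and at 9.20, 9.31 and 9.87 FPKM in vector metformin libraries, against 10.24, 9.42 and 11.01 FPKM in vector untreated libraries. It was not called, and its small negative changes (-0.13 and -0.10) depended on the scaling. With median-ratio factors it was called higher in GPD1 cells (0.18, adjusted p = 0.0184), and with totals taken without the mitochondrial genome lower in both GPD1 cells (-0.48, adjusted p = 2.69e-05) and vector cells (-0.37, adjusted p = 0.000231). The ratio of SLC25A37 to SLC25A28 within a library was 0.713 to 1.09 in GPD1 metformin cells against 0.482 to 0.636 in GPD1 untreated cells, and 0.979 to 1.39 in vector metformin cells against 0.603 to 0.673 in vector untreated cells, with no overlap in either. This ratio was not tested.

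SLC25A46 differs from most of the family in that it sits in the outer mitochondrial membrane, where it takes part in mitochondrial fusion and fission. It stood at 1.52, 1.52 and 1.52 FPKM in GPD1 metformin libraries, against 3.64, 3.78 and 3.79 FPKM in GPD1 untreated libraries. Vector cells had 1.14, 1.06 and 1.36 FPKM with metformin, against 3.53, 3.61 and 3.65 FPKM without it. The libraries of each group lay close together and far from the other treatment. It was 2.46-fold lower with metformin in GPD1 cells (log2 fold change -0.91 ± 0.05, SE, limma adjusted p = 8.02e-08) and 3.02-fold lower in vector cells (-1.07 ± 0.05, adjusted p = 1.93e-08), with calls that held under all scalings.

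Of the uncoupling protein-like carriers, SLC25A14 (UCP5) fell in both GPD1 and vector cells, at 1.28, 0.834 and 1.59 FPKM in GPD1 metformin libraries against 2.13, 2.04 and 2.03 FPKM in GPD1 untreated libraries, and at 1.13, 0.989 and 0.811 FPKM in vector metformin libraries against 2.15, 2.39 and 2.49 FPKM in vector untreated libraries (log2 fold change -0.47 ± 0.11, SE, and -0.76 ± 0.11, limma adjusted p = 0.00287 and 9.57e-05). The call in GPD1 cells was lost with median-ratio factors (-0.27, adjusted p = 0.0549). SLC25A30, also called KMCP1, stood at 3.48, 3.61 and 3.78 FPKM in GPD1 metformin libraries, against 2.149, 3.112 and 2.997 FPKM in GPD1 untreated libraries, and at 3.75, 3.72 and 3.68 FPKM in vector metformin libraries, against 1.979, 3.899 and 2.095 FPKM in vector untreated libraries. The second vector untreated library lay above all metformin libraries, and the call in vector cells (0.41 ± 0.17, SE, limma adjusted p = 0.0466) lay close to the threshold. In GPD1 cells it was called higher with median-ratio factors (0.57, adjusted p = 0.00996) and with upper-quartile factors (0.42, adjusted p = 0.0416). SLC25A27 (UCP4), a carrier of nervous tissue, was under the filter and was not tested. It stood at 0.406 to 0.560 FPKM in GPD1 metformin libraries and 0.335 to 0.543 FPKM in GPD1 untreated libraries. Vector cells had 0.227 to 0.331 FPKM with metformin and 0.154 to 0.203 FPKM without it. GPD1 libraries lay above vector libraries of the same treatment, with no overlap.

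The remaining 2 tested members have no role assigned here. SLC25A35 averaged 1.32 ± 0.19 FPKM in GPD1 metformin libraries against 2.87 ± 0.39 FPKM in GPD1 untreated libraries, and 1.52 ± 0.33 FPKM in vector metformin libraries against 2.82 ± 0.19 FPKM in vector untreated libraries (SD, n = 3 each, log2 fold change -0.73 ± 0.11, SE, and -0.61 ± 0.11, limma adjusted p = 9.05e-05 and 0.000353). RANGRF on the opposite strand shares 1293 exonic bases with it and stood between 2.77 and 4.25 FPKM, so that reads there cannot be assigned without strand. SLC25A43 stood at 4.183, 3.647 and 3.496 FPKM in GPD1 metformin libraries, against 2.49, 2.59 and 3.70 FPKM in GPD1 untreated libraries, and at 2.57, 2.97 and 2.96 FPKM in vector metformin libraries, against 2.25, 2.55 and 2.45 FPKM in vector untreated libraries. The third GPD1 untreated library overlapped the GPD1 metformin libraries. Its rise in GPD1 cells (0.29 ± 0.11, adjusted p = 0.0292) turned to -0.01 (adjusted p = 0.957) with totals taken without the mitochondrial genome. In vector cells SLC25A43 was called higher with median-ratio factors (0.35, limma adjusted p = 0.0129). In all, 13 of the 32 tested members share exonic bases with another annotated gene, 4 of them with one on the same strand, and for 8 the other gene reached 1 FPKM in some library.

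The members under the filter were low. SLC25A45 stood at 0.196 to 0.246 FPKM in GPD1 metformin libraries against 0.509 to 0.615 FPKM in GPD1 untreated libraries, and at 0.255 to 0.271 FPKM in vector metformin libraries against 0.589 to 0.840 FPKM in vector untreated libraries, with no overlap. SLC25A53 stood between 0.270 and 0.466 FPKM and SLC25A18, a glutamate carrier, between 0.0180 and 0.0720 FPKM. Libraries listed at 0 were found for 7 members. They were 6 of 12 libraries for SLC25A2 (an ornithine carrier, up to 0.135 FPKM), 5 for SLC25A34 (all with metformin, up to 0.369 FPKM), 3 for SLC25A41, 10 for SLC25A47 (a liver carrier, up to 0.0236 FPKM), 11 for SLC25A48 (up to 0.0184 FPKM), 10 for SLC25A52 (up to 0.0484 FPKM) and 11 for SLC25A31. Of these, 6 were at 0 in all 3 GPD1 metformin libraries.

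The metformin changes of the 32 tested members can be read together in the plot of GPD1 against vector cells. The 7 members with a called interaction were SLC25A6 and SLC25A23, with positive values, and SLC25A25, SLC25A29, SLC25A33, SLC25A36 and SLC25A44, with negative ones. For SLC25A25, SLC25A29 and SLC25A33 a rise with metformin was smaller in GPD1 cells, for SLC25A36 a rise was called in vector cells and none in GPD1 cells, and for SLC25A44 the fall was larger in GPD1 cells. SLC25A23 fell less, and SLC25A6 rose more, in GPD1 cells. In the comparison of GPD1 with vector cells under metformin, the 11 lower members included these 5 with negative interaction, the 3 that were also lower without metformin (SLC25A3, SLC25A6 and SLC25A38), and SLC25A22, SLC25A32 and SLC25A42. The 4 higher members were SLC25A23 (0.32 ± 0.09, log2, SE, limma adjusted p = 0.00955), SLC25A43 (0.32 ± 0.11, adjusted p = 0.0257), SLC25A24 (0.23 ± 0.07, adjusted p = 0.0148) and SLC25A46 (0.20 ± 0.05, adjusted p = 0.0075), and none of these 4 was called with totals taken without the mitochondrial genome. Without the first GPD1 metformin library 10 of the 15 calls of this comparison held, and SLC25A22, SLC25A24, SLC25A32, SLC25A42 and SLC25A43 were not called.

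**Figure D5:**
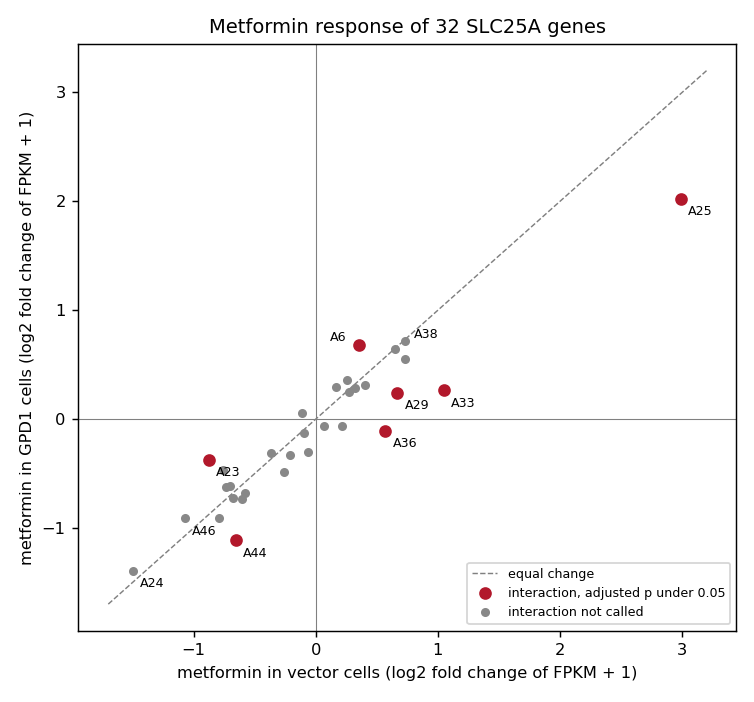
Log2 fold change of FPKM + 1 with metformin in GPD1 cells (vertical) against vector cells (horizontal) for the 32 tested SLC25A genes, with the line of equal change and the 7 genes of called interaction in red. SLC25A25 lies at 2.99 in vector cells and 2.02 in GPD1 cells, and SLC25A33 and SLC25A36 lie right of the line.

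Genes that import, accompany or resemble the carriers were set beside them. The 13 genes of the import route of carrier proteins, which leads through the TOM complex, the small TIM chaperones and the TIM22 complex, were all tested. For these and the following lists, the shares of all tested genes that rose and fell with metformin were 26.1% and 48% in GPD1 cells and 31.3% and 43.3% in vector cells. With metformin 3 rose and 7 fell in GPD1 cells, and 4 rose and 8 fell in vector cells. TOMM20, a receptor of the outer membrane, was higher in both (log2 fold change 0.59 in GPD1 cells and 0.70 in vector cells, limma adjusted p = 1.96e-06 and 4.17e-07), TIMM22, the channel of the carrier insertase, was lower in both (-0.87 and -0.68, adjusted p = 2.17e-07 and 1.47e-06), and so was AGK, another subunit of that complex (-0.47 and -0.94, adjusted p = 2.34e-05 and 8.12e-08). Of the 3 outer membrane channels, VDAC3 was lower (-1.40 in GPD1 cells and -1.28 in vector cells, adjusted p = 9.05e-10 and 1.01e-09) and VDAC2 higher (0.90 and 1.29, adjusted p = 0.000193 and 1.06e-05). MCU, the pore of the calcium uniporter, was higher in both (0.95 and 1.10, adjusted p = 2.52e-08 and 7.08e-09), while of its 7 listed genes 3 rose and 1 fell in GPD1 cells and 2 rose and 4 fell in vector cells. Of the pyruvate carrier and sideroflexin genes, 1 rose and 4 fell of 6 tested in GPD1 cells, and 0 rose and 4 fell in vector cells. Among the SLC25 relatives under other names, UCP2 was lower in GPD1 untreated than in vector untreated cells (-0.65, adjusted p = 0.00933), and MTCH2, an insertase of the outer membrane, fell with metformin by 0.34 on the log2 scale in GPD1 cells and by 1.15 in vector cells (adjusted p = 0.00204 and 1.53e-07), the value in GPD1 cells being -0.02 with median-ratio factors. These lists were chosen with earlier results of these data known.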

How the data were processed

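The authors deposited FPKM for 58302 genes in 12 columns, under a header with no unit. The unit was inferred: multiplied by exon length (GENCODE release 29), low values came out as whole numbers of a fixed step in each column. With a tolerance of 0.02 this held for 64.7 to 69.5% of the genes that had at most 10 steps. RPKM cannot be told apart from it. The submitters' processing notes name GRCh38/hg38 as the build, and HISAT2 2.1.0, CASAVA 1.8 and edgeR as tools, with no role for any. The sources used here name neither the program that made the values nor its strand setting, nor how multiply mapped reads were handled. Per the labels' protocols, polyadenylated RNA and an NEBNext Ultra kit were used.

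The 12607 genes whose mean reached 1 FPKM were fitted as 4 group means on log2(FPKM + 1), using limma 3.58.1 with its intensity trend under R 4.3.3. No counts were used, so no count test was run, and fold changes of low genes are understated by the pseudocount of 1. The 5 comparisons were adjusted by Benjamini and Hochberg over all tested genes, with a threshold of 0.05. Members and lists were chosen with earlier results of these data known. Members were described in full by rule: per comparison up to 6 a direction with the largest changes among those called, and the most abundant member of each role group; members under the filter are given by range and those listed at 0 by name, with 1 member not reported here. Of other lists, the 3 genes of smallest p per comparison could be named. Alternatives were other scalings, filters, a pseudocount of 0.1, only the groups compared, a replicate block, removal of an exon length trend (spline with 5 degrees of freedom), a minimum of 0.5 in absolute log2 fold change, and the omission of single libraries. Promoter windows came from RefSeq (GRCh38.p14), with 37 of 45 members matched by symbol. The 786-O cells, another 12 samples, are left aside.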

Additional observations from a re-analysis of the deposited data

Results flagged for a closer look

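The metformin effect differed between GPD1 and vector cells for 7 tested members, by the interaction term of the limma model at an adjusted p under 0.05, where 45.9% of all tested genes were called. The differences, as log2 fold change in GPD1 cells minus that in vector cells, were -0.97 for SLC25A25, -0.79 for SLC25A33, -0.67 for SLC25A36, -0.46 for SLC25A44, -0.43 for SLC25A29, 0.33 for SLC25A6 and 0.50 for SLC25A23. Their signs and calls held under the 3 other scalings.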

How the results depend on the processing

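Counts of called members in both directions together moved by over 1.5 times only where calls also had to reach 0.5 in absolute log2 fold change. That left 14 under metformin in GPD1 cells, 1 for GPD1 without metformin, 3 for GPD1 under metformin and 4 for the interaction. Of all tested genes 46.7%, 5.28%, 28.3% and 25.7% were called at that limit, in the same order. The split into higher and lower moved with scaling, as given with the counts. With each library left out in turn the counts were 25 to 27 for metformin in GPD1 cells, 23 to 26 in vector cells, 3 to 4 for GPD1 without metformin, 11 to 17 for GPD1 under metformin and 7 to 9 for the interaction. The shares of all tested genes called were then 70.7 to 74.5%, 71.2 to 74.5%, 16.5 to 22.6%, 55.2 to 59.6% and 42.5 to 45.7%, in the same order. The calls of SLC25A30 and SLC25A1 in vector cells and that of SLC25A43 in GPD1 cells were among those lost most often. With replicate number as a block the counts stayed at 26, 26, 3, 15 and 7, and every call was kept (73.4%, 74%, 18.8%, 59.1% and 44.8% of all tested genes were called). Same-numbered libraries of different groups had correlations of deviations of -0.065 to 0.056, against -0.099 to 0.072 for other pairs, so the numbers are not taken to pair them.

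Some small changes turned sign. Under metformin in GPD1 cells the log2 fold change with median-ratio factors was 0.18 for SLC25A28, 0.26 for SLC25A1 and 0.16 for SLC25A36, and with upper-quartile factors 0.0668 for SLC25A1 and 0.0029 for SLC25A36. With totals taken without the mitochondrial genome it was -0.05 for SLC25A29, -0.0951 for SLC25A3, -0.0147 for SLC25A33, -0.0972 for SLC25A15, -0.0065 for SLC25A43 and -0.30 for SLC25A39. With the exon length trend removed it was 0.0915 for SLC25A36. With single libraries left out it was -0.0989 to 0.0094 for SLC25A1, above 0 only without the first GPD1 untreated library, and -0.0343 to 0.0973 for SLC25A39, below 0 only without the third. In vector cells it was 0.11 for SLC25A39 and 0.13 for SLC25A28 with median-ratio factors, and -0.0678 for SLC25A1 and -0.0507 for SLC25A43 with totals taken without the mitochondrial genome. SLC25A29, not called for GPD1 without metformin, was -0.0833 to 0.0031 there with single libraries left out, above 0 only without the first vector untreated library. Across all alternatives SLC25A25 ranged from 1.68 to 2.31 in GPD1 cells and from 2.75 to 3.37 in vector cells, and SLC25A24 from -1.86 to -1.16 and from -2.09 to -1.32. At this depth members under about 0.1 FPKM rest on a few reads, and 3 libraries a group limit the precision. The cause of the sign changes was not tested.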

Other observations

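Of the 4 mitochondrial ABC transporters listed, ABCB10, which takes part in haem synthesis in the matrix, averaged 2.66 ± 0.27 FPKM in GPD1 metformin libraries against 10.47 ± 0.59 FPKM in GPD1 untreated libraries, and 3.83 ± 0.42 FPKM in vector metformin libraries against 7.48 ± 0.16 FPKM in vector untreated libraries (SD, n = 3 each). ABCB8 was lower with metformin in both GPD1 cells (log2 fold change -0.63, limma adjusted p = 1.01e-05) and vector cells (-0.78, adjusted p = 1.64e-06).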
